A study of Ovis aries with 6 samples.

Results

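The mitochondrial ribosomal protein genes of sheep skeletal muscle were examined, that is, every gene of the count table whose symbol starts with MRPL or MRPS followed by a number. There were 75 such genes among the 23144 genes of the table, 47 with MRPL and 28 with MRPS symbols. RNA of the longissimus dorsi muscle was sequenced in females of the Qianhua Mutton Merino (QHMM) and the Small Tail Han (STH), a traditional local breed. Each breed had 3 animals aged 1 year with 1 library per animal. Both breeds came from the same breeding company and shared an environment, with natural light and with feed and water freely available. There was no experimental treatment. The comparison is STH vs. QHMM throughout, so a log2 fold change above 0 means a higher value in STH, and it asks how these genes differ between muscle of the 2 breeds.

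The mitochondrial ribosome translates the few proteins that mitochondrial DNA encodes, all of them subunits of the respiratory chain and ATP synthase. Its RNAs are made inside the mitochondrion, whereas its proteins are encoded by nuclear genes, made in the cytosol and imported; some descend from bacterial ribosomal proteins and others exist only in mitochondria. Muscle depends on this translation for oxidative energy supply, and slow fibres are the fibre type richest in mitochondria.

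Sequencing depth, as the total of the count table, was 14334544, 12980936 and 12382244 reads for QHMM libraries 1 to 3 and 13107349, 10982191 and 13546561 for STH libraries 1 to 3. The muscle label was matched by ACTA1, the skeletal muscle actin and the most abundant of the 5 listed muscle markers, whose RPKM (reads relative to the length of the gene and the depth of the library) was 58134, 64090.4 and 57059 in QHMM and 33122, 47053 and 67380.3 in STH. Before the breeds were compared, counts were scaled by TMM, which sets a factor per library from the bulk of the genes. QHMM libraries 1 to 3 received factors of 1.01, 0.852 and 1.03, and STH libraries 1 to 3 factors of 1.20, 1.10 and 0.853. QHMM library 2 and STH library 3 thus stood apart with the lowest factors, which raise their normalized CPM (counts relative to the library total after TMM scaling) over the unscaled values, so the counts below were also taken without them.

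Most of the mitochondrial ribosomal protein genes were expressed at moderate mean levels. Of the 75 genes, 74 were detected well enough to be tested, each with a mean RPKM of at least 1. The median of their mean RPKM was 28.7, compared with 5.18 for all tested genes and 316 for the 62 genes of the cytosolic ribosome, and 59 of the 74 lay between 5 and 50. The order of the members by RPKM was similar between libraries, with Spearman's rho between 0.855 and 0.957 across genes over the 15 library pairs; genes are not independent replicates. The remaining gene, MRPL23, whose product lies at the exit of the tunnel for new proteins, had no read in any library. TNNT3, a fast fibre troponin, was also at 0 reads in all 6 muscle libraries of this table, so no upper limit for the level of MRPL23 is drawn from its 0, and no fold change was given for it.

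On the RPKM scale, MRPL14 stood highest, with a mean of 146 over the 6 libraries. Its product lies at the face of the large subunit that meets the small one. MRPL14 RPKM was 148, 153 and 146 in the QHMM libraries and 119.6, 148 and 160.2 in the STH libraries, so the breeds overlapped. Next in mean RPKM were MRPS34 (93.6), MRPL37 (83.0), MRPS18A (80.9) and MRPL38 (77.6). At the low end, MRPL1 had a mean RPKM of 2.15, MRPL15 of 4.68 and MRPS35 of 6.99. The highest and lowest tested members were 67.9-fold apart in RPKM, although their proteins are built into the same particle. The mean RPKM by breed (mean ± SD, n = 3) was 90.04 ± 6.61 in QHMM and 97.1 ± 17.9 in STH for MRPS34, and 91.3 ± 6.65 in QHMM and 74.8 ± 2.36 in STH for MRPL37. MRPS34, MRPL37, MRPS18A and MRPL38 changed places between libraries, whereas MRPL14 stood above each of them in all 6. Spread between animals of a breed was moderate in normalized CPM, with a median coefficient of variation of 18.9%. This compared with 20.4% for tested genes in the same range of means and 23.1% for all tested genes. The spread was not computed without the TMM factors. The most variable member was MRPL17 (33.4%), named after its values were seen.

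No mitochondrial ribosomal protein gene differed between the breeds at the thresholds used, an edgeR FDR below 0.05 and a change of over 1.5-fold. The count was 0 of 74 members, compared with 432 of 12506 tested genes (3.45%), 203 of them up-regulated in STH (1.62%) and 229 down-regulated (1.83%). The lowest FDR of a member, from edgeR with Benjamini-Hochberg adjustment, was 0.0904. At an unadjusted p below 0.05, 5 of 74 members remained (6.76%), 3 higher and 2 lower in STH, compared with 19.2% of all tested genes. DESeq2 and limma-trend on log2(RPKM + 1) also called 0 members, with 4 and 7 at an unadjusted p below 0.05. The breeds did not overlap for 5 members that were higher in all STH libraries and 3 that were lower, compared with 24.7% of all tested genes (13.0% and 11.7%). On CPM without the TMM factors they did not overlap for 12 members that were higher in STH and 3 that were lower, compared with 23.2% of all tested genes (15.4% and 7.80%), and 5 members were separate on both scales.

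The estimated changes of the members were small as well. Their median log2 fold change was −0.04, with 31 members above 0 and 43 below, and the estimates ran from −0.72 to 0.82. The median of all tested genes was 0.02. The sign of the members' median was not fixed: it was 0.07 with library totals alone and 0.05 with RPKM. These scalings moved the median of all genes to 0.14 and 0.12, so that the members lay 0.08 and 0.06 below it. The members' median was also above 0 without QHMM library 2 (0.03) and without STH library 1 (0.02). Its difference from the median of all genes changed sign as well. That difference was 0.02 without QHMM library 2, 0.03 without STH library 1 and −0.21 without STH library 3. By limma-trend on log2(RPKM + 1) without the RPKM filter it was 0.01. The medians of the subunit groups given below were also near 0, and apart from that of small subunit genes with a bacterial relative they took either sign over the settings run. Only 6 of 74 members (8.11%) had an estimate beyond 1.5-fold, compared with 26.7% of all tested genes. For 9 members (12.2%) the whole 95% interval lay within 1.5-fold in either direction, compared with 5.56% of all tested genes. For the others the interval reached beyond it. These background shares were not matched for expression level. The median SE was 0.25 for the members and 0.30 for all tested genes, and the median RPKM was 28.7 and 5.18. Without QHMM library 2 and STH library 3 together, the count was again 0 of 74 members, with 7 at an unadjusted p below 0.05, and all genes gave 11 calls. Leaving out single libraries gave 131 calls among all genes without QHMM library 1, 208 without QHMM library 2 and 150 without QHMM library 3. Without STH libraries 1, 2 and 3 there were 535, 183 and 329 calls among all genes. Each time, 0 members were called. In bulk muscle, fewer cells of a type and less RNA per cell cannot be told apart, so each difference is one of RNA per library.

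**Figure D1:**
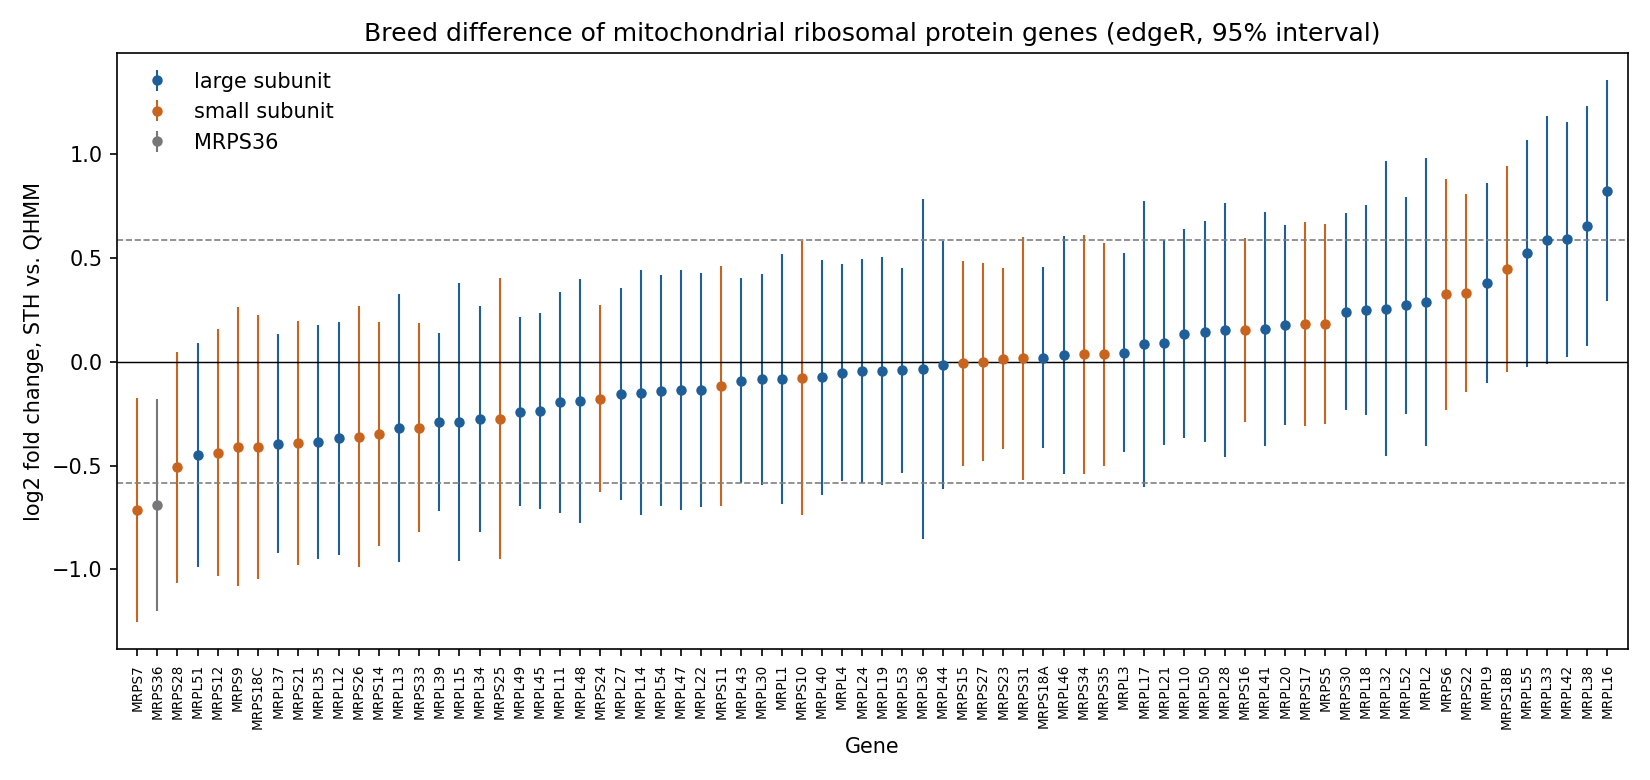
Log2 fold change (vertical axis, STH vs. QHMM) of the 74 tested members in order of size (horizontal axis), with 95% intervals from edgeR; colours separate large subunit genes, small subunit genes and MRPS36, and the dashed lines mark 1.5-fold. Most points lie between the dashed lines, and 5 intervals, those of MRPS7, MRPS36, MRPL42, MRPL38 and MRPL16, leave out 0.

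Among the 29 tested large subunit genes with a bacterial relative, 0 were called, and the median log2 fold change was −0.04 (−0.09 to 0.06 over the other settings). MRPL16, whose bacterial relative lies close to the sites where tRNAs bind, showed the largest estimate of all members. Its normalized CPM was 17.9, 24.3 and 16.0 in the QHMM libraries and 38.0, 27.5 and 37.5 in the STH libraries. All STH libraries lay above all QHMM libraries, with a gap between STH library 2, the lowest of its breed, and QHMM library 2, the highest. The log2 fold change was 0.82 (SE 0.24, 95% interval 0.29 to 1.36), higher in 3 of 3 STH libraries, and the edgeR FDR of 0.0904 missed the threshold. MRPL33, a small protein of the subunit whose gene overlaps RBKS on the other strand, had a normalized CPM of 13.3, 10.1 and 14.9 in the QHMM libraries and 19.0, 24.6 and 13.9 in the STH libraries. Here STH library 3 lay among the QHMM libraries, so the breeds overlapped, and the log2 fold change of 0.59 (SE 0.27) had an edgeR FDR of 0.270. For MRPL55, normalized CPM was 15.3, 24.6 and 17.4 in the QHMM libraries and 22.4, 30.1 and 29.9 in the STH libraries. STH library 1 lay below QHMM library 2 and the other STH libraries lay above every QHMM library, giving a log2 fold change of 0.52 (SE 0.25, edgeR FDR 0.281). On RPKM, which carries no TMM factor, every STH library of MRPL55 lay above every QHMM library, at 14.8, 20.01 and 17.1 in QHMM and 25.6, 31.7 and 24.3 in STH.

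The other named and tested large subunit genes with a bacterial relative gave smaller estimates than MRPL16, MRPL33 and MRPL55. MRPL12 forms the flexible stalk that recruits elongation factors, and its normalized CPM was 78.4, 105 and 59.7 in the QHMM libraries and 62.7, 51.8 and 73.5 in the STH libraries. The breeds overlapped, with QHMM library 2 highest, and the log2 fold change was −0.37 (SE 0.25, edgeR FDR 0.473). MRPL3 reaches toward the peptidyl transferase centre, where peptide bonds form. With a normalized CPM of 13.1, 12.2 and 12.8 in the QHMM libraries and 12.4, 14.1 and 12.8 in the STH libraries, it was nearly level on this scale. MRPL3 RPKM ranged more widely, from 6.94 in QHMM library 2 to 10.4 in STH library 2. The interval of −0.43 to 0.52 for its log2 fold change of 0.044 lay within 1.5-fold, and the estimate was −0.030 without STH library 2. MRPL1, of the stalk where used tRNAs leave, was also nearly level at a normalized CPM of 3.87, 4.25 and 4.40 in the QHMM libraries and 4.02, 3.88 and 3.90 in the STH libraries. MRPL1 RPKM ranged from 1.75 in STH library 3 to 2.53 in STH library 1. Its log2 fold change was −0.083 (SE 0.27), and 0.042 with library totals alone. MRPL14, whose gene overlaps TMEM63B on the other strand, had a log2 fold change of −0.15 (SE 0.27), which was 0.033 without STH library 1, the lowest in normalized CPM. MRPL15, a core protein of the subunit, had a log2 fold change of −0.29 (SE 0.30) with overlapping breeds.

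The 19 tested large subunit genes whose products have no counterpart in the bacterial large subunit also had 0 calls and a median log2 fold change of −0.04 (−0.17 to 0.09 over the other settings). MRPL38 is part of the central protuberance at the top of the subunit. Its normalized CPM was 69.9, 100.3 and 66.1 in the QHMM libraries and 95.6, 119 and 158 in the STH libraries. The lowest STH library, library 1, lay below QHMM library 2, so the breeds overlapped, and STH library 3 was highest. The log2 fold change was 0.65 (SE 0.26, edgeR FDR 0.203, unadjusted p below 0.05). The overlap was one of the TMM scale only: MRPL38 RPKM was 54.5, 65.9 and 52.5 in QHMM and 88.2, 101 and 104 in STH, without overlap, and with library totals alone the log2 fold change was 0.76 (edgeR FDR 0.0894). MRPL42, once counted among small subunit proteins, had a normalized CPM of 6.01, 7.51 and 5.89 in the QHMM libraries and 8.10, 11.4 and 9.70 in the STH libraries. The STH libraries lay above the QHMM libraries without overlap at this low level, and the log2 fold change was 0.59 (SE 0.26, edgeR FDR 0.240). MRPL51 pointed the other way, at a normalized CPM of 41.4, 59.3 and 47.0 in the QHMM libraries and 39.4, 26.4 and 42.4 in the STH libraries. STH library 3 lay just above QHMM library 1, so the breeds overlapped, and the log2 fold change was −0.45 (SE 0.24, edgeR FDR 0.351).

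MRPS18A and MRPS30 keep small subunit symbols although their products sit in the large subunit. MRPS18A, which belongs to the S18 family of the bacterial small subunit, was nearly level in normalized CPM, at 66.3, 79.4 and 67.4 in the QHMM libraries and 73.1, 70.5 and 72.5 in the STH libraries. On RPKM the STH libraries spread more widely, at 98.5, 87.6 and 69.7, compared with 75.5, 76.2 and 78.2 in QHMM. Its interval of −0.41 to 0.45 lay within 1.5-fold, and the log2 fold change of 0.020 turned below 0 without QHMM library 1 (−0.050), QHMM library 3 (−0.014) or STH library 1 (−0.0055). MRPS30 normalized CPM was 14.8, 14.1 and 12.6 in the QHMM libraries and 16.0, 17.8 and 15.3 in the STH libraries. The STH libraries were all above the QHMM libraries by a narrow margin, with a log2 fold change of 0.24 (SE 0.22, edgeR FDR 0.590); on RPKM the breeds overlapped. MRPL39, a relative of threonyl-tRNA synthetases named after its values were seen, showed the opposite order at a normalized CPM of 33.3, 37.6 and 38.5 in the QHMM libraries and 29.5, 31.5 and 28.4 in the STH libraries. All STH libraries lay below all QHMM libraries, and the log2 fold change was −0.29 (SE 0.19, edgeR FDR 0.458). On RPKM the breeds overlapped, at 30.1, 28.5 and 35.4 in QHMM and 31.5, 31.0 and 21.6 in STH. MRPL37 had a log2 fold change of −0.39 (SE 0.24), with breeds that overlapped in normalized CPM and were separate on RPKM, where all STH libraries were lower. MRPL41, which lies near the tunnel exit, had one of 0.16 (SE 0.25), and −0.0088 without STH library 3.

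In the small subunit, 0 of the 16 tested genes with a bacterial relative were called, and their median log2 fold change was −0.15 (−0.30 to −0.05 over the other settings). MRPS7 helps to organize the head of the subunit. Its normalized CPM was 73.9, 73.5 and 58.4 in the QHMM libraries and 44.3, 29.7 and 51.3 in the STH libraries. Every STH library lay below every QHMM library, and STH library 2 was the lowest. The log2 fold change was −0.72 (SE 0.24, 95% interval −1.25 to −0.18), lower in 3 of 3 STH libraries, with an edgeR FDR of 0.140 that missed the threshold. MRPS28, the relative of bacterial S1, had a normalized CPM of 14.6, 18.7 and 16.6 in the QHMM libraries and 9.83, 15.1 and 10.1 in the STH libraries. STH library 2 lay just above QHMM library 1 and the other STH libraries were lower, and the log2 fold change was −0.51 (SE 0.25, edgeR FDR 0.304). MRPS12, of the decoding centre, had a normalized CPM of 34.8, 43.6 and 30.5 in the QHMM libraries and 20.7, 22.5 and 37.2 in the STH libraries. STH library 3 lay within the QHMM range and the other STH libraries below it, for a log2 fold change of −0.44 (SE 0.27, edgeR FDR 0.412).

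MRPS18B and MRPS18C, of the same S18 family, both sit in the small subunit and pointed in opposite directions. MRPS18B normalized CPM was 13.4, 16.1 and 12.4 in the QHMM libraries and 18.1, 21.4 and 17.6 in the STH libraries. The STH libraries were all above the QHMM libraries, and the log2 fold change was 0.45 (SE 0.22, edgeR FDR 0.307). MRPS18C stood lower, at a normalized CPM of 4.83, 8.06 and 6.04 in the QHMM libraries and 4.59, 5.37 and 4.24 in the STH libraries. Its breeds overlapped, with a log2 fold change of −0.41 (SE 0.29, edgeR FDR 0.483); whether the 2 genes differ in their response to breed was not tested.

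The 9 small subunit genes found only in mitochondria had 0 calls, 0 members at an unadjusted p below 0.05 and a median log2 fold change of 0.01 (−0.18 to 0.11 over the other settings). MRPS34, needed for a stable small subunit, had a normalized CPM of 64.7, 72.6 and 69.4 in the QHMM libraries and 58.8, 53.3 and 99.8 in the STH libraries. STH library 3 was far above the rest and the other STH libraries were the lowest of the 6. The log2 fold change was near 0 at 0.035 (SE 0.26), and −0.30 without STH library 3 and −0.029 without QHMM library 1. MRPS35 had a log2 fold change of 0.037 (SE 0.24), which was −0.19 without STH library 2, its highest, and −0.072 without QHMM library 1. MRPS22, named after its values were seen, had a normalized CPM of 12.7, 13.8 and 11.4 in the QHMM libraries and 15.3, 16.3 and 16.1 in the STH libraries. The STH libraries lay above the QHMM libraries without overlap, and the log2 fold change was 0.33 (SE 0.22, edgeR FDR 0.444).

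MRPS36 carries the family's symbol, but its product is known as a subunit of the 2-oxoglutarate dehydrogenase complex of the citrate cycle rather than as a ribosomal protein. Its normalized CPM was 49.5, 37.0 and 50.2 in the QHMM libraries and 34.4, 23.1 and 27.1 in the STH libraries. All STH libraries were below all QHMM libraries, with QHMM library 2 close to STH library 1. The log2 fold change was −0.69 (SE 0.23, 95% interval −1.20 to −0.18), lower in 3 of 3 STH libraries, and the edgeR FDR was 0.133. On RPKM the breeds overlapped, at 37.3, 23.5 and 38.5 in QHMM and 30.7, 19.0 and 17.2 in STH, and with library totals alone the log2 fold change was −0.57 at an unadjusted p of 0.0816.

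**Figure D2:**
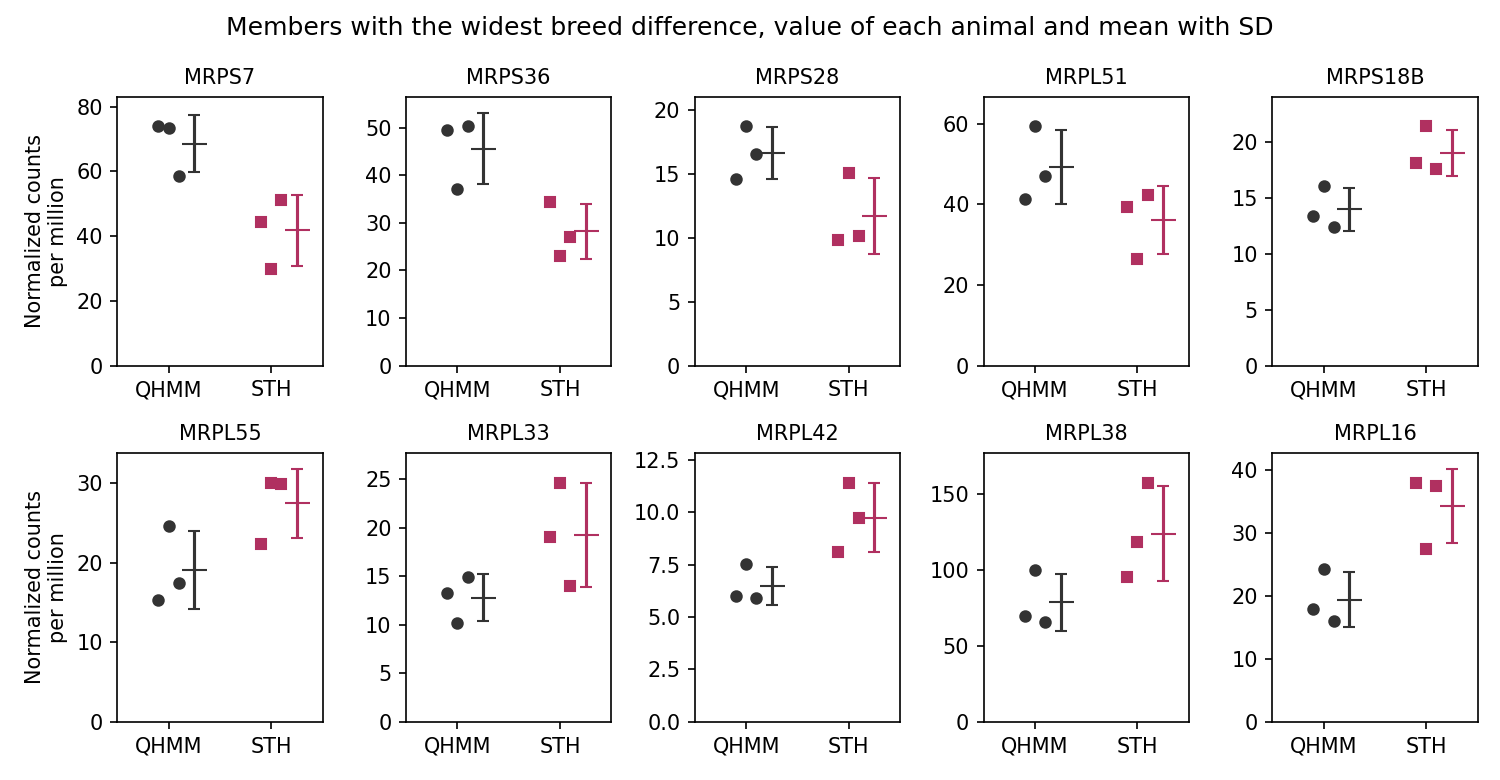
Normalized CPM (vertical axis) of the 10 members with the largest absolute log2 fold change, with QHMM animals as circles, STH animals as squares, and the mean with SD (n = 3) beside each group. The breeds are separate for MRPS7, MRPS36, MRPS18B, MRPL42 and MRPL16 and overlap in the other panels.

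Taken as a group, the members made up a similar small share of the reads in all animals. Without scaling, they held 0.247%, 0.241% and 0.240% of the counts in the QHMM libraries and 0.257%, 0.253% and 0.248% in the STH libraries, with 95% Wilson intervals of at most 0.00297 percentage points to either side. The STH shares were all above the QHMM shares (0.252% ± 0.00467 and 0.243% ± 0.00348, mean ± SD, n = 3). STH library 3 and QHMM library 1 were closest, and their intervals overlapped. These intervals cover counting error within a library only, not the spread between animals. The breed difference of the share was not tested. After TMM scaling the order was another. Summed normalized CPM was 2441, 2837 and 2334 in QHMM and 2149, 2293 and 2906 in STH, so that QHMM library 2 and STH library 3 were high and the breeds overlapped (2537 ± 265 and 2449 ± 402). Of the 74 members, 47 had their highest normalized CPM in these 2 libraries, 21 in QHMM library 2 and 26 in STH library 3. On unscaled CPM, only 11 and 9 members were highest there, and STH library 2 held the highest value of 21 members. The order of the libraries thus differed between the scales. With library totals alone, the log2 fold change of every member was higher than with TMM, by 0.07 to 0.15. The median of all tested genes rose as well, from 0.02 to 0.14. The members' median lay 0.07 below it with TMM and 0.08 below it with library totals. With 1 library left out, the members' median minus that of all genes ran from −0.21 (without STH library 3) to 0.03 (without STH library 1). With library totals alone, 7 members had an unadjusted p below 0.05, and 0 were called (lowest edgeR FDR 0.0848).

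**Figure D3:**
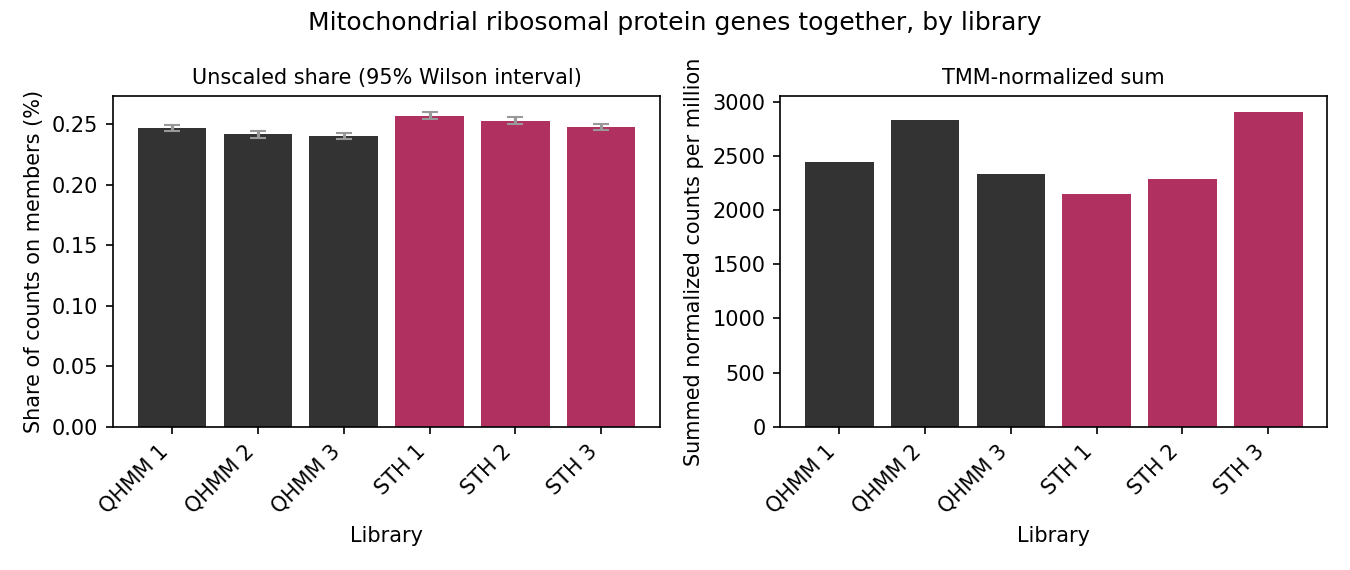
Share of all counts that fell on the members, in percent with 95% Wilson intervals (left), and their summed normalized CPM (right), for each of the 6 libraries; QHMM libraries are dark and STH libraries red. The unscaled shares lie between 0.240% and 0.257%, and QHMM library 2 and STH library 3 are the highest after scaling.

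Some members share sequence or position with other genes, and their counts are less certain. In the RefSeq annotation ARS-UI_Ramb_v3.0, a newer assembly used here only for names and neighbours, 72 members were matched and 13 overlapped another gene of the table, 12 of these on the other strand. MRPL14, MRPL33, MRPL41, MRPL55, MRPS7, MRPS12, MRPS18A and MRPS34 were among them. Of the overlapped genes 9 were tested, and their log2 fold change had the same sign as that of the member for 3 and the opposite sign for 6. MRPS7 overlaps MIF4GD, which lies on the opposite strand and was named, like SARS2, RBKS and TMEM63B, after its values were seen. MIF4GD normalized CPM was 33.8, 47.9 and 37.5 in the QHMM libraries and 91.1, 126 and 93.6 in the STH libraries. It was higher in every STH library while MRPS7 was lower, with a log2 fold change of 1.38 (SE 0.23) and an edgeR FDR of 0.0147; the call was lost without QHMM library 1 or QHMM library 3, where the log2 fold changes were 1.25 and 1.34. MRPS12 overlaps SARS2, the mitochondrial seryl-tRNA synthetase gene, whose normalized CPM was 7.52, 6.97 and 5.02 in the QHMM libraries and 8.998, 12.8 and 13.8 in the STH libraries. All STH libraries were above all QHMM libraries for SARS2, with a log2 fold change of 0.86 (SE 0.28, edgeR FDR 0.117). RBKS, which overlaps MRPL33 and pointed the same way, had a normalized CPM of 1.24, 1.27 and 1.81 in the QHMM libraries and 4.66, 2.40 and 4.85 in the STH libraries. All its STH libraries were above its QHMM libraries at this low level, with a log2 fold change of 1.46 (SE 0.39, edgeR FDR 0.0714). TMEM63B, which overlaps MRPL14, was lower in every STH library, with a log2 fold change of −0.78 (SE 0.23, edgeR FDR 0.0961). DESeq2 called RBKS and TMEM63B, and edgeR without the low-count filter called RBKS. Whether the counting used strand is not given in the sources used here, so reads of such pairs cannot be told apart with certainty.

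Copies of the members can also share reads with them. The table lists 18 genes under LOC symbols that are described as similar to a member or as its pseudogene, of which 8 had no read, 5 were tested and 0 were called. The copy with most reads, LOC101119765, resembles MRPL15 and had 350, 222 and 204 reads in QHMM and 276, 279 and 222 in STH. MRPL15 itself had 139, 83 and 105 reads in QHMM and 69, 88 and 106 in STH, so in every library the copy was counted more often than the named gene. How uniquely mapped reads were split between them was not tested.

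The other genes of mitochondrial translation also had 0 calls in each list. The 7 mitochondrial ribosome subunits under other symbols had a median log2 fold change of 0.14 (−0.01 to 0.23 with 1 library left out). Among them, DAP3, a GTP-binding protein of the small subunit, had a normalized CPM of 14.7, 17.8 and 14.4 in the QHMM libraries and 16.5, 21.8 and 16.4 in the STH libraries. Its breeds overlapped, with a log2 fold change of 0.22 (SE 0.23). The 22 assembly factors, which modify the ribosomal RNA or guide subunit formation, had a median of 0.20 (0.09 to 0.22 with 1 library left out and 0.32 with library totals alone), with 15 above 0. The 13 genes of translation factors and messenger RNA handling had a median of 0.04 (−0.07 to 0.10 with 1 library left out and 0.17 with library totals alone). The elongation factor TUFM was at a normalized CPM of 92.8, 113 and 66.3 in the QHMM libraries and 97.3, 88.98 and 104 in the STH libraries. QHMM library 3 was the lowest and QHMM library 2 the highest, so the breeds overlapped, and the log2 fold change of 0.095 (SE 0.24) was −0.086 without QHMM library 3. LRPPRC, which stabilizes mitochondrial messenger RNAs, had a log2 fold change of 0.31 (SE 0.29), with STH library 3 below every QHMM library and the other STH libraries above them.

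In the 12 genes of mitochondrial RNA processing the median was 0.15 (−0.07 to 0.24 with 1 library left out and 0.28 with library totals alone). In the 8 genes of mitochondrial transcription and DNA maintenance it was −0.06 (−0.15 to 0.03 with 1 library left out and 0.06 with library totals alone). POLRMT, the mitochondrial RNA polymerase, had a normalized CPM of 11.8, 12.3 and 10.2 in the QHMM libraries and 16.7, 19.0 and 17.5 in the STH libraries. All STH libraries were above all QHMM libraries, and the log2 fold change was 0.63 (SE 0.22, edgeR FDR 0.145). PPARGC1A, a coactivator that drives mitochondrial genes in muscle, was low at a normalized CPM of 4.49, 8.87 and 10.99 in the QHMM libraries and 7.40, 1.73 and 4.16 in the STH libraries. The breeds overlapped, and the log2 fold change was −0.85 (SE 0.48, edgeR FDR 0.367).

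Some markers of slow fibres and fat were called between the breeds, while no member was. Of 6 tested slow fibre markers, 3 were called, all lower in STH: OMYHCS, the slow myosin heavy chain (−1.34, SE 0.26, edgeR FDR 0.0251), the slow myosin light chain MYL2 (−1.44, SE 0.31, FDR 0.0351) and the slow troponin TNNT1 (−1.37, SE 0.27, FDR 0.0240). Summed over the list, normalized CPM was 33736, 30887 and 31156 in QHMM and 11608, 13958 and 12573 in STH. OMYHCS held the most reads of them, and MYL2 had the highest mean RPKM (4372, compared with 2007 for OMYHCS). All STH libraries were far below the QHMM libraries, and the list's median log2 fold change was −1.35. The number called was 0 without any 1 of the QHMM libraries, and 2, 1 and 2 without STH libraries 1, 2 and 3, while the list's median stayed between −1.41 and −1.26. With all libraries, DESeq2 called 5 of the 6, edgeR 6 without the low-count filter, 4 with the replicate block and 2 with library totals alone, and limma-trend on log2(RPKM + 1) 3, or 0 without the RPKM filter. The 5 tested fast fibre markers had 0 calls, with all 5 estimates below 0 and a median of −0.25 (−0.59 to −0.13 with 1 library left out); without QHMM library 2, 1 of the 5 was above 0. ACTN3, a fast fibre actinin named after its values were seen, had a normalized CPM of 5919, 7460.5 and 5188 in the QHMM libraries and 1711, 2788 and 4638 in the STH libraries. All its STH libraries lay below its QHMM libraries, with a log2 fold change of −1.02 (SE 0.36, edgeR FDR 0.155, unadjusted p below 0.05), and it was called by DESeq2 and by edgeR without STH library 3. TNNI2, the fast troponin, was at a normalized CPM of 6079, 7957 and 7268 in the QHMM libraries and 3799, 4751 and 9309 in the STH libraries. STH library 3 was the highest and the other STH libraries the lowest, so the breeds overlapped. TNNT3 had no read in any library. The 5 muscle markers had 0 calls and a median of 0.12 (−0.12 to 0.18 with 1 library left out and 0.25 with library totals alone). ACTA1 had a log2 fold change of −0.33 (SE 0.39).

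Of the 5 adipocyte markers, 4 were called, all lower in STH, and FABP4 was not. FABP4, a fatty acid binding protein named after its values were seen, had the highest mean RPKM of the list (50.9) and a normalized CPM of 41.1, 7.78 and 9.89 in the QHMM libraries and 34.3, 11.9 and 10.9 in the STH libraries. Library 1 was the highest in both breeds and the breeds overlapped, with a log2 fold change of −0.040 (SE 0.61, edgeR FDR 0.980) that was 1.09 without QHMM library 1 and −0.80 without STH library 1. ADIPOQ, which held the most reads of the list, had a normalized CPM of 247, 85.2 and 129 in the QHMM libraries and 35.7, 39.6 and 30.4 in the STH libraries. QHMM library 1 was the highest, and every STH library lay below every QHMM library, with a log2 fold change of −2.13 (SE 0.36, edgeR FDR 0.0143). PLIN1, which coats lipid droplets (−2.37, SE 0.43, edgeR FDR 0.0186), and CIDEC, a lipid droplet protein (−2.44, SE 0.56, edgeR FDR 0.0438), were lower as well. LEP, the leptin gene, had 84, 11 and 24 reads in QHMM and 5, 0 and 1 in STH; it was called too, at read counts too low for a firm fold change. The summed list was at 386, 115 and 168 normalized CPM in QHMM and 79.9, 57.8 and 51.7 in STH. The number called was 2, 4 and 2 without QHMM libraries 1, 2 and 3 and 3, 1 and 2 without STH libraries 1, 2 and 3; without QHMM library 2 and STH library 3 together, it was 0 for adipocyte and 0 for slow fibre markers. With all libraries, DESeq2 called 4 of the adipocyte markers, edgeR 3 with robust dispersions and 2 with library totals alone, and limma-trend on log2(RPKM + 1) 2, or 0 without the RPKM filter. Lists for endothelium (3 tested, median 0.04, and −0.06 to 0.12 with 1 library left out), leukocytes (4, −0.40, and −0.68 to −0.22), fibroblasts (4, −0.68, and −1.10 to −0.45) and smooth muscle (4, 0.14, and −0.17 to 0.68) had 0 calls. With library totals alone the endothelial median was 0.18. For fibroblasts, 1 marker was called by DESeq2, without the low-count filter and with the replicate block. The red blood cell markers HBM and ALAS2 were at or near 0 and untested. The part of fibre type and fat content in the members' values was not tested.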

How the data were processed

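Poly(A)-containing RNA of 6 muscles was fragmented and sequenced on an Ion Proton instrument. The authors filtered the reads, mapped them to the sheep genome Oar_v3.1 (submitters' processing notes), kept uniquely mapped reads and deposited raw counts per gene; the aligner, the counting program and its use of strand are not given in the sources used here. The deposited RPKM values were computed by the authors from those counts, gene length and library total. All per-sample columns were used; 25 gene names of the RPKM table that had no match in the count table were left out, and no member was among them.

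Counts were tested in R 4.3.3 with edgeR 4.0.16 (TMM, filterByExpr, quasi-likelihood F test, two-sided, breed as the only term) over 12506 genes, with Benjamini-Hochberg adjustment over all of them and calls at an FDR below 0.05 and over 1.5-fold. EBSeq, the program used in the study, was not installed. Scripts were tested on simulated counts. Python 3.11.15 with pandas 2.3.3, SciPy 1.17.1 and matplotlib 3.10.9 was used for summaries and plots. With 10982191 to 14334544 counts per library, a share of counts carries a 95% Wilson interval for counting error only.

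The members, lists and tests were chosen with earlier results of these data known. Members were named if they were called, had 1 of the 10 largest absolute log2 fold changes or 1 of the 5 highest or 3 lowest mean RPKM values, were MRPL16 or MRPS7, which the study lists, had a known role (MRPL12, MRPS12, MRPL3, MRPL41, MRPS18A, MRPS18B, MRPS18C, MRPS30, MRPS36), or had no value. In the other lists, called genes and DAP3, TUFM, LRPPRC, TFAM, POLRMT, PPARGC1A, OMYHCS, MYL2, TNNI2 and ACTA1 were to be named. TFAM had no row under that symbol in the count table, so it was not analysed. Any other gene was named after its values were seen.

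The alternatives with all libraries were DESeq2 1.42.0, upper-quartile normalization, no low-count filter, at least 10 counts in every library, a replicate block, no minimum fold change, robust dispersions, omission of the 20 most abundant genes, and limma-trend (limma 3.58.1). Limma-trend took log2(RPKM + 1) or log2(RPKM + 0.1), for genes reaching an RPKM of 1 in 3 or more libraries, and log2(RPKM + 1) for every gene above 0. Each library was also left out in turn. Library totals without TMM, and leaving out QHMM library 2 with STH library 3, were added after seeing the data.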

Additional observations from a re-analysis of the deposited data

How the results depend on the processing

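The count of called members was 0 of 74 under every alternative run, with 3 to 9 members at an unadjusted p below 0.05. The members' median log2 fold change stayed between −0.08 and 0.07 with all libraries and between −0.18 and 0.03 with 1 library left out. Among all genes, 956 were called by DESeq2, 806 without a low-count filter, 250 with library totals alone and 78 by limma-trend without an RPKM filter; 11 were called without QHMM library 2 and STH library 3 together, and 131 to 535 with 1 library left out. The cause was not tested. Same-numbered libraries of the breeds came from different animals, so the main fit did not pair them. They deviated from their breed means with correlations of 0.24, −0.06 and −0.15 across genes. The highest correlation was 0.32, for QHMM library 2 with STH library 3. Deviations from a mean of 3 libraries depend on each other, so these correlations cannot decide on pairing. With the replicate block, 0 of 74 members and 457 of all genes were called, the members' median was −0.06, and MRPS34 was at −0.020. Not every library deviated most like its own number.

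For single named genes, 528 of 566 estimates with all libraries kept their direction and side of the threshold, 13 lost their call, 13 gained one and 12 changed sign. With 1 library left out, 269 of 312 kept both, 25 lost their call, 4 gained one and 14 changed sign. The genes that changed sign had log2 fold changes between −0.15 and 0.16, and the cause was not tested. FABP4 was at 0.12 with library totals alone, 0.15 with the replicate block, 0.27 by limma-trend on log2(RPKM + 1) with or without the RPKM filter and 0.28 on log2(RPKM + 0.1), and ranged from −0.80 to 1.09 with 1 library left out. MRPS18A was at −0.010 with at least 10 counts in every library and −0.0015 without the 20 most abundant genes. MRPL1 was at 0.042 with library totals alone, 0.024 by limma-trend on log2(RPKM + 1) with or without the RPKM filter, and 0.031 on log2(RPKM + 0.1). Without QHMM library 2 and STH library 3 together, MRPS34 was at −0.27 and MRPL41 at −0.044. With 1 library left out, the log2 fold change ranged from −0.41 to 0.033 for MRPL14, −0.30 to 0.19 for MRPS34, −0.050 to 0.11 for MRPS18A, −0.19 to 0.15 for MRPS35, −0.030 to 0.069 for MRPL3, −0.0088 to 0.30 for MRPL41 and −0.086 to 0.29 for TUFM. Estimates that kept their sign but moved by over 1.5 times ranged from 0.35 to 0.77 for MRPL33, −0.58 to −0.29 for MRPL51, −0.58 to −0.24 for MRPL37, −0.16 to −0.042 for MRPL1, −0.54 to −0.056 for MRPL15, −0.55 to −0.14 for MRPL12, −0.75 to −0.28 for MRPS12 and −0.59 to −0.19 for MRPS18C. Outside the members, besides CYTB, ATP6 and ATP8, such ranges were 0.057 to 0.33 for DAP3, 0.078 to 0.59 for LRPPRC, −1.47 to −0.50 for PPARGC1A, 0.81 to 1.51 for PPRC1, −2.83 to −1.35 for CIDEC, −0.73 to −0.028 for TNNI2 and −0.83 to −0.057 for ACTA1. MRPL16 kept a log2 fold change of 0.71 to 1.02, MRPS7 of −0.89 to −0.54 and MRPS36 of −0.87 to −0.59.

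With 3 animals per breed, intervals of most members span changes of 1.5-fold, so 0 calls do not show equal expression. Low members such as MRPL1, with 45 to 63 reads per library, carry the most counting error. Animal, library and breed cannot be separated beyond these 6 animals.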

Other observations

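The transcripts that the mitochondrial ribosome translates were not called either, but their estimates were lower in STH. Of the 13 protein-coding genes of mitochondrial DNA, 0 passed the edgeR test, 12 had a log2 fold change below 0, and the median was −0.51 (−0.71 to −0.16 with 1 library left out and −0.37 with library totals alone). Their summed normalized CPM was 18066, 40274 and 22426 in the QHMM libraries and 14578, 18906 and 17319 in the STH libraries. QHMM library 2 was far above the other 5, and the median nearest 0 was the one without it. ATP6, ATP8 and CYTB, named after their values were seen, had an unadjusted p below 0.05. ATP6, a subunit of ATP synthase, was at a normalized CPM of 857, 5187 and 918 in the QHMM libraries and 719.6, 889 and 769 in the STH libraries. QHMM library 2 stood far above all others and the breeds otherwise overlapped; the log2 fold change was −1.55 (SE 0.60, edgeR FDR 0.190), and −0.16 without that library. CYTB, of respiratory complex III, was at a normalized CPM of 5099, 10759 and 6495 in the QHMM libraries and 3554, 4857 and 4903 in the STH libraries. All STH libraries lay below all QHMM libraries, with a log2 fold change of −0.75 (SE 0.33, edgeR FDR 0.241), whereas on RPKM the breeds overlapped; it was −0.98 to −0.38 with 1 library left out. ATP8 had one of −0.97 (SE 0.35, edgeR FDR 0.165), and −1.30 to −0.63 with 1 library left out.

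Regulators of mitochondrial genes gave estimates in both directions. Of 7 tested, 0 were called, although 4 had an unadjusted p below 0.05, and these were named after their values were seen. MYC, a growth regulator that also binds promoters of ribosomal genes, was at a normalized CPM of 38.9, 12.7 and 3.22 in the QHMM libraries and 93.2, 116 and 85.1 in the STH libraries. The STH libraries lay above the QHMM libraries, which differed widely, and the log2 fold change was 2.42 (SE 0.64, edgeR FDR 0.0667). PPRC1, a coactivator related to PPARGC1A, was at a normalized CPM of 24.0, 22.5 and 15.2 in the QHMM libraries and 29.3, 74.8 and 43.6 in the STH libraries. It was higher in every STH library, most so in library 2 (1.26, SE 0.34, edgeR FDR 0.0693). PPARGC1B, another relative, showed the opposite order at a normalized CPM of 28.4, 24.7 and 19.6 in the QHMM libraries and 13.5, 3.14 and 9.10 in the STH libraries. Every STH library was below every QHMM library (−1.49, SE 0.42, edgeR FDR 0.0814). NRF1, a transcription factor of many mitochondrial genes, had a log2 fold change of 0.66 (SE 0.24, edgeR FDR 0.165), with the STH libraries above the QHMM libraries. DESeq2 called 2 of the 7, limma-trend on log2(RPKM + 1) called 1, and edgeR called 3 without the low-count filter, 2 with the replicate block, 1 without QHMM library 1 and 2 without STH library 1. Of the 62 cytosolic ribosomal protein genes 0 were called by edgeR, and 1 by DESeq2, with the replicate block and without QHMM library 3 each; 52 had a log2 fold change above 0, and the median was 0.22 (0.19 to 0.24 with 1 library left out and 0.35 with library totals alone). Their summed normalized CPM was 16977, 17350 and 16778 in QHMM and 18667, 20054 and 22399 in STH, so the STH libraries were all higher.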
